A study of Homo sapiens with 6 samples.

Results

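LYPD1 and GPR39 are a pair of human protein-coding genes on chromosome 2 whose last exons overlap tail to tail on opposite strands. They are the 2 rows of those names among the 59087 rows of a table of read counts from HEK293T, a line derived from human embryonic kidney. The pair was chosen on its read counts in these libraries, in KO1, KO2 and WT, which appeared to be swapped between the strands. Its levels and fold changes are therefore given as a description, without a test. The study set 2 knockout lines of THUMPD2, which encodes a methyltransferase of the spliceosome's U6 snRNA, against wild-type cells (WT). The lines are labelled THUMPD2 KO#1 (here KO1) and THUMPD2 KO#2 (here KO2), and KO1, KO2 and WT had 2 libraries of total RNA each, with no treatment named. The labels do not say whether each knockout line is 1 clone or whether a group's libraries were grown apart. In each comparison, loss of THUMPD2 and other differences of a line from the WT cells cannot be told apart.

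LYPD1, also known as LYNX2, is a small protein of the Ly6/uPAR family that is tethered to the cell surface by a lipid anchor. In mouse brain it binds nicotinic acetylcholine receptors and dampens their activity. GPR39 is a G protein-coupled receptor of the ghrelin receptor family that responds to extracellular zinc ions and signals through G proteins to phospholipase C and serum response factor. The proteins are unrelated in structure and share only the place where their genes end.

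On GRCh38, in the annotation of GENCODE release 29, GPR39 (ENSG00000183840.6) lies on the plus strand from 132416574 to 132646559 and LYPD1 (ENSG00000150551.10) on the minus strand from 132644853 to 132671579. The last exon of GPR39 and the last exon of LYPD1 share 1180 bases, from 132645101 to 132646280. These are 34.8% of the 3387 exonic bases of GPR39 and 48.9% of the 2412 exonic bases of LYPD1. The shared stretch holds coding sequence of each gene. In its first 506 bases the end of the GPR39 coding sequence faces the 3' UTR of LYPD1, in the next 438 bases both genes are 3' UTR, and in the last 236 bases the end of the LYPD1 coding sequence faces the 3' UTR of GPR39. A read from this stretch can be given to a gene only by its strand.

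**Figure D1:**
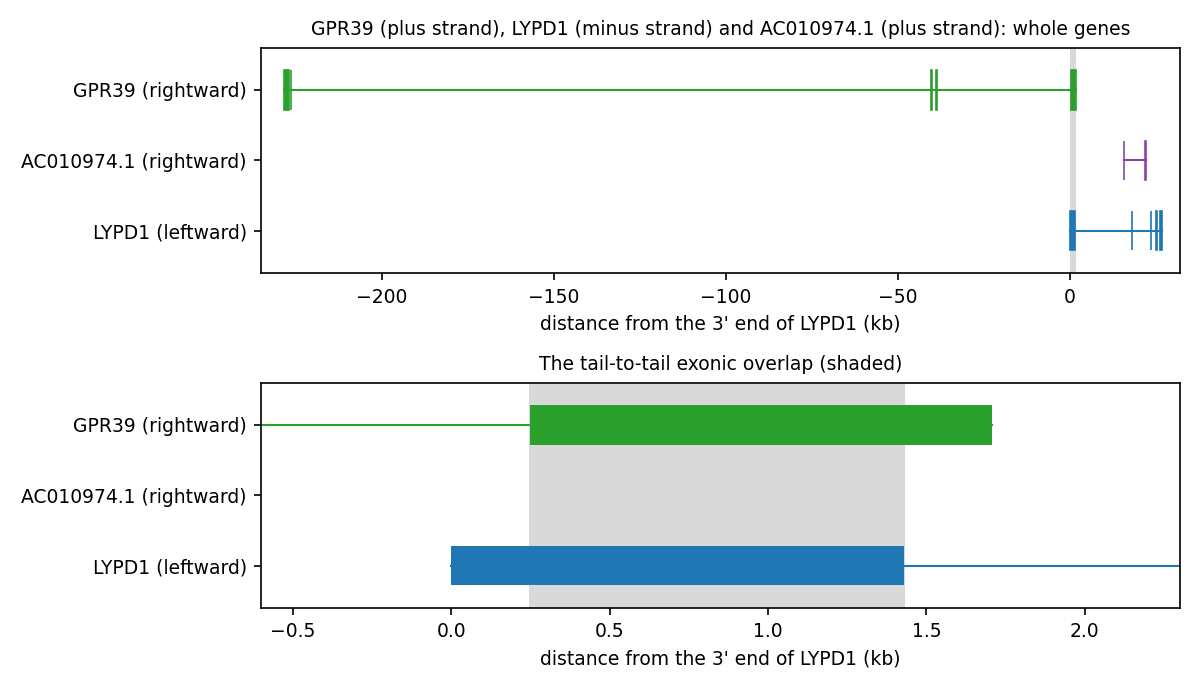
Map of GPR39, LYPD1 and AC010974.1, with exons as boxes and the distance from the 3' end of LYPD1 in kb on the horizontal axis, for the whole genes (top) and for the overlap (bottom). The shaded overlap spans 1180 bases, and the exons of AC010974.1 lie within introns of LYPD1.

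The end of each coding sequence shows how the same bases read on either strand. The following 30-base runs, from GENCODE release 29 transcripts, close the coding sequence of LYPD1 (chr2:132646045-132646074) and of GPR39 (chr2:132645577-132645606). Capitals mark the stop codon, or its complement on the other strand.
LYPD1, minus strand: aaattagccctcttctcggcacactgcTGA
same bases, plus strand: TCAgcagtgtgccgagaagagggctaattt
GPR39, plus strand: gagaatggttttcaggagcatgaagttTGA
same bases, minus strand: TCAaacttcatgctcctgaaaaccattctc

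The 2 rows moved together, so the starts of both genes are shown. These are RefSeq promoter windows of GRCh38.p14, 300 bases each and written along the gene's strand, for GPR39 (chr2:132416555-132416854, plus strand) and for the upstream and downstream starts of LYPD1 (chr2:132671477-132671776 and chr2:132670156-132670455, minus strand). Capitals mark matches on either strand to 4 motifs, the TATA box (TATAAA), the CCAAT box (the letters of its name), the GC box (GGGCGG) and the E-box (CACGTG), and no matches overlap.
GPR39: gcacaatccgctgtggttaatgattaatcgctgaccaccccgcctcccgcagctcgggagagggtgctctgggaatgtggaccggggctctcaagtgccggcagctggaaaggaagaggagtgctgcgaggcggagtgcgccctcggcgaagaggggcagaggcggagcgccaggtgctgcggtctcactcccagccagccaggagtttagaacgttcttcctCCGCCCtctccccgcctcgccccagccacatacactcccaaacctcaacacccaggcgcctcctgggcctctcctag
LYPD1 upstream start: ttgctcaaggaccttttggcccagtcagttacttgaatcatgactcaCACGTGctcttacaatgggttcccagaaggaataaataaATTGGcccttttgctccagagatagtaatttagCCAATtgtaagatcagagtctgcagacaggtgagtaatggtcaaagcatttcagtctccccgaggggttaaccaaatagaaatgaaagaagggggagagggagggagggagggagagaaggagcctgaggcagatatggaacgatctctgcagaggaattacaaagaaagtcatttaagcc
LYPD1 downstream start: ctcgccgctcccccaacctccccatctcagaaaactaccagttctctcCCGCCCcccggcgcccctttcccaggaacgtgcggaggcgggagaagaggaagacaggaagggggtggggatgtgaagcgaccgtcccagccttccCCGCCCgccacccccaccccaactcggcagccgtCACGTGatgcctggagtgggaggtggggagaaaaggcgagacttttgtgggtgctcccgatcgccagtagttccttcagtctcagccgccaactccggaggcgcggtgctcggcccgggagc
The downstream LYPD1 window had 67% G and C and 24 CG dinucleotides, with 2 matches to GGGCGG and 1 to CACGTG. The upstream LYPD1 window had 45.3% G and C and 3 CG dinucleotides, with 2 matches to CCAAT and 1 to CACGTG. The GPR39 window had 65.0% G and C, 20 CG dinucleotides and 1 match to GGGCGG. None of the 3 windows held TATAAA. Over all 35116 promoter windows of the table the medians were 58.7% G and C and 14 CG dinucleotides, and the E-box was found in 7.26%, the GC box in 45.0%, the CCAAT box in 34.6% and the TATA box in 11.5%. The E-box, which many helix-loop-helix factors bind, was thus in both LYPD1 windows. A match describes letters only, and which start was used in these cells was not measured.

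The row GPR39 was among the more abundant rows in each knockout library and held few reads in WT. It had 2616 and 2775 reads in KO1, 2477 and 2779 in KO2, and 19 and 28 in WT. No knockout library came near a WT library, and the read counts of KO1 and KO2 overlapped. The authors' FPKM, which divides reads by library size and gene size, was 311.0 and 349.9 in KO1, 270.2 and 287.3 in KO2, and 2.23 and 3.06 in WT. On this scale the groups did not overlap, and the order was KO1, KO2, WT. The fitted fold change was 121-fold in KO1 against WT (log2 difference 6.92 ± 0.12, SE, n = 2 against 2) and 101-fold in KO2 against WT (6.66 ± 0.12). KO1 was 1.19-fold above KO2 (log2 difference 0.25 ± 0.07). The mean FPKM was 330.4 ± 27.5 in KO1 and 278.7 ± 12.1 in KO2 (SD, n = 2 each), a difference within 2 SD of KO1, and without KO1 replicate 2 the log2 difference was 0.16. These are bulk libraries, so more cells carrying the transcript and more transcript per cell cannot be told apart.

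In rank, the row GPR39 moved into the top of the table. By CPM, reads scaled to library size, it stood at place 556 and 497 of 14184 tested rows in KO1, 620 and 579 in KO2, and 9288 and 8234 in WT. In each knockout library 1457 rows reached 100 CPM, and 4 of these were at least 4-fold higher in both lines. The 4, chosen after their values were seen, were GPR39, PCAT1 (41.4-fold and 35.7-fold in KO1 and KO2), PIN4 (5.82-fold and 5.32-fold) and CRYZ (4.78-fold and 4.19-fold). A larger log2 difference than that of GPR39 was found for 16 rows in KO1 and 38 rows in KO2, of which 3 and 7 had any read in WT. In the authors' deposited table, which compares the 4 knockout with the 2 WT libraries, GPR39 stood at a log2 fold change of 6.82, with 5 of 11785 rows above it.

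The row LYPD1 held few reads in any library. It had 23 and 36 reads in KO1, 16 and 20 in KO2, and 1 and 0 in WT. Every knockout library was above both WT libraries, and both KO1 libraries were above both KO2 libraries. Its FPKM was 2.18 and 3.62 in KO1, 1.39 and 1.65 in KO2, and 0.0935 and 0 in WT. Summed over libraries and scaled, KO1 was 62.4 times WT (95% exact conditional interval 10.8 to 2504) and KO2 32.8 times WT (5.52 to 1331), against a single WT read. KO1 was 1.90 times KO2 (1.24 to 2.96), while the 2 KO1 libraries differed from each other by an SD of 35.1% of their mean CPM. The fitted log2 differences were 5.66 ± 0.81 in KO1 and 4.73 ± 0.89 in KO2 against WT (SE, n = 2 against 2). For KO1 against KO2 the fitted log2 difference was 0.93 ± 0.45, and 0.52 without KO1 replicate 2. All intervals on reads here cover counting error alone. They pool the libraries of a group and so leave out the spread between them. PCR copies also cannot be told from separate molecules. In the authors' deposited table LYPD1 stood at a log2 fold change of 4.74, with 26 rows above it.

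**Figure D2:**
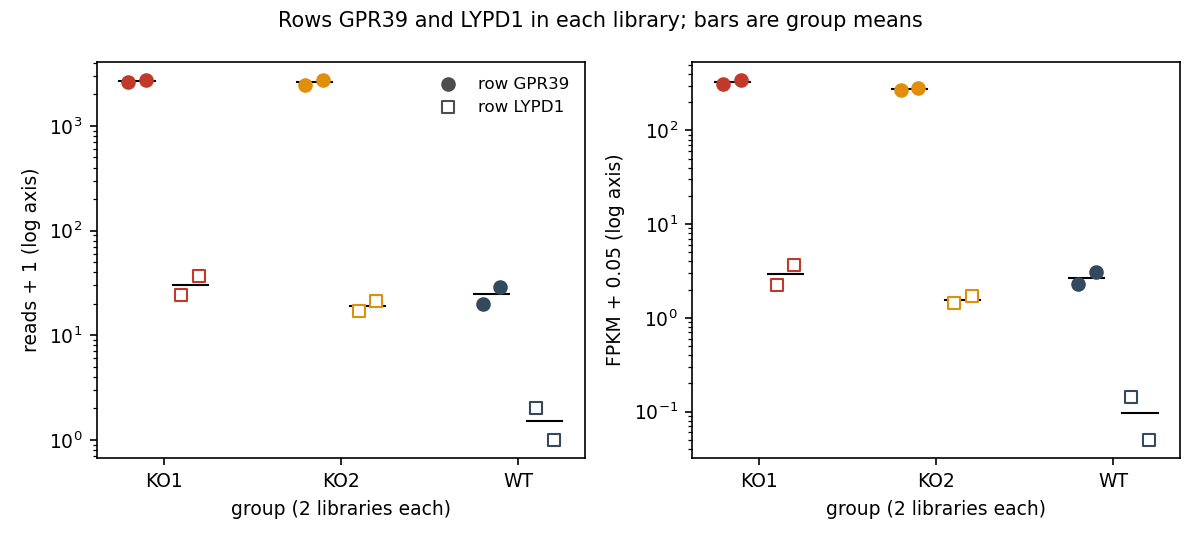
Rows GPR39 (filled circles) and LYPD1 (open squares) in each library, as reads plus 1 (left) and FPKM plus 0.05 (right) on log axes, for KO1, KO2 and WT, with bars at group means. GPR39 lies at 2477 reads or more in each knockout library and at 19 and 28 in WT, and LYPD1 at 16 to 36 in the knockout libraries and at 1 and 0 in WT.

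The FPKM of the 2 rows rests on gene sizes of 1138 bases for GPR39 and 1428 for LYPD1 in the authors' deposited table. How these sizes were derived is not given in the sources used here. The first is below the 3387 exonic bases of GPR39 in GENCODE release 29 and close to the 1180 shared bases, and the second equals the length of the last exonic block of LYPD1 (1428 bases). A level per base computed over all exons would be lower for both rows, while fold changes of 1 row between libraries would stay as they are. The fold of mean FPKM was 125-fold in KO1 and 105-fold in KO2 against WT for GPR39, close to the fitted folds.

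The names of the rows do not settle which gene the reads came from. The labels describe a kit that keeps the strand, with a first-strand (RF) library, and the strand setting used in counting is not given in the sources used here. VIM, an intermediate filament gene abundant in HEK293T cells, shows how rows behaved in these libraries: its own row held 296 and 313 reads in KO1, 678 and 692 in KO2 and 339 and 352 in WT. The row VIM-AS1, over VIM exons on the other strand, held 23367 and 25010 in KO1, 44695 and 47482 in KO2 and 26970 and 28026 in WT. The abundant row thus lay opposite this gene and not on it. Whether the reads of the row GPR39 came from LYPD1 transcripts in the same way was not tested, since the count table does not give read positions.

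The row LYPD1 amounted to about 1% of the row GPR39 in the knockout libraries. The share was 0.879% and 1.30% in KO1, 0.646% and 0.720% in KO2, and 5.26% and 0% in WT, where the larger value is 1 read against 19. Over the group sums, LYPD1 made up 1.08% of the reads of both rows in KO1 (95% Clopper-Pearson interval 0.825 to 1.39), 0.680% in KO2 (0.477 to 0.941) and 2.08% in WT (0.0527 to 11.1). The WT share rests on a single LYPD1 read. For VIM, the own row was 1.27% and 1.25% of VIM-AS1 in KO1, 1.52% and 1.46% in KO2 and 1.26% and 1.26% in WT. For NEFM, a neurofilament gene, the own row was a larger share of the row over it (AF106564.1), at 9.46% and 4.48% in KO1, 3.54% and 2.83% in KO2 and 5.15% and 2.98% in WT. Whether the LYPD1 reads are reads of the other strand that were misassigned in library preparation, or a transcript of their own, was not tested.

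Other protein-coding genes overlap in the same way. There were 762 tail-to-tail pairs that share at least 100 exonic bases and have both rows in the table, with a median overlap of 515 bases, and 172 of them share at least as many as LYPD1 and GPR39. In 316 pairs the stronger row averaged 1000 reads or more, and the weaker row was then between 0% and 90.8% of the stronger, with a median of 6.24%. LYPD1 and GPR39 stood at 0.898% over all libraries, and 62 of the 316 pairs, themselves included, were at or below this value. With LYPD1 and GPR39 left out, 616 pairs had both rows tested. Both rows were called (edgeR adjusted p under 0.05) in 100 of them in KO1, 77 with the same sign, and in 121 in KO2, 98 with the same sign. No matched reference was computed for these counts of pairs, and the shares that follow are of single rows. Whether reads of the stronger row that were given to the weaker row made both move was not tested. Over all tested rows 23.6% were called in KO1 against WT (10.4% higher, 13.3% lower) and 29.0% in KO2 against WT (13.6% higher, 15.4% lower). In both lines with the same sign 13.5% were called, and between KO1 and KO2 20.4% were called (10.1% higher in KO1, 10.3% lower).

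By the sum of both rows' absolute log2 differences in KO1, LYPD1 and GPR39 came first among the tested pairs. The pair was chosen on these counts, and the row LYPD1 was tested only through the knockout libraries. Its place is therefore a description alone. PERM1 and PLEKHN1 followed, with log2 differences of −4.10 and −1.98 in KO1 and −2.29 and −1.09 in KO2, all called. PIN4, which encodes a prolyl isomerase, and CITED1, a transcriptional coactivator gene, came next. The row PIN4 had summed reads of 9828 in KO1, 10436 in KO2 and 1785 in WT, and CITED1 had 39, 49 and 4. Their log2 differences were 2.54 and 3.29 in KO1 and 2.41 and 3.40 in KO2, all called. PIN4 and CITED1 were the 1 other pair in which both rows were at least 4-fold higher in both lines.

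**Figure D3:**
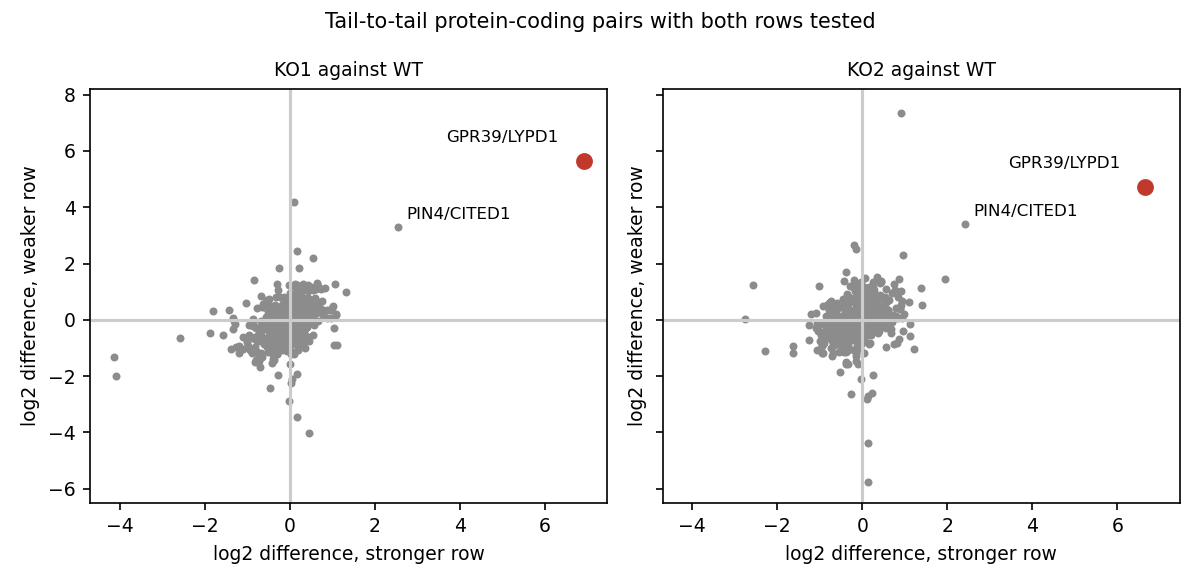
Log2 difference of the stronger row (horizontal) and of the weaker row (vertical) of each tail-to-tail pair, in KO1 against WT (left) and KO2 against WT (right), 1 point per pair, with GPR39 and LYPD1 in red. The red point lies at 6.92 and 5.66 in KO1 and at 6.66 and 4.73 in KO2. No other pair lies as far out in KO1 by the sum of both absolute values, which describes the values the pair was chosen on.

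A row that played no part in choosing the pair lies inside LYPD1. AC010974.1 (ENSG00000230065.1) is a noncoding gene on the plus strand from 132660526 to 132666990. Its exons, of 55 and 319 bases, lie in introns of LYPD1 and share no base with a LYPD1 exon. It had 14 and 12 reads in KO1, 9 and 3 in KO2, and none in WT. All 4 knockout libraries were above both WT libraries, at very low counts. With 3 reads over the WT group as the floor, AC010974.1 was 9.16-fold higher in KO1 and 3.64-fold higher in KO2. These folds leave out the counting error of the knockout reads and are not lower bounds. The exact conditional interval used for LYPD1 had its lower bound for AC010974.1 at 6.93-fold in KO1 and 2.53-fold in KO2 against WT. By the edgeR quasi-likelihood test the adjusted p was 0.000451 in KO1 and 0.0112 in KO2. DESeq2, another test of counts, did not call it in KO1, where the 1 tested row within 2 Mb that it called was TUBA3D. In KO2 the call was lost without KO2 replicate 1 (adjusted p 0.181), without WT replicate 1 (0.0781) and without WT replicate 2 (0.0845). The row was tested only because of its reads in the knockout libraries.

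The own row of the nearest gene outside the pair held almost no reads. NCKAP5, whose 3' end lies 220 bases upstream of the start of LYPD1 on the same strand, had 4 and 0 reads in KO1, 1 and 8 in KO2 and none in WT, too few to test. Of 112 rows placed within 2 Mb of the pair, 83 had no read in any library and 13 were tested.

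Among those 13 rows, 3 were higher in KO1 and 5 in KO2 by edgeR, and 0 were lower in either line, also at an unadjusted p under 0.05 or by DESeq2. AC010974.1 passed the filter on low counts only through KO1, and RAB6D only through KO2, the groups where they were highest. Without these rows, 2 of 11 were higher in KO1 and 3 of 11 in KO2. Over all tested rows 23.6% and 29.0% were called in the same comparisons, and 10.4% and 13.6% were called higher. The counts rest on single libraries: without WT replicate 2 they were 1 in KO1 and 0 in KO2, and without KO1 replicate 2, 1 was called in KO1. TUBA3D, a tubulin gene whose reads may be shared with near-identical copies, had 181 and 188 reads in KO1, 213 and 228 in KO2 and 146 and 113 in WT. It rose by 0.59 ± 0.16 in KO1 (adjusted p 0.00689) and 0.63 ± 0.16 in KO2 (0.00255), and neither call held without WT replicate 2. AC073869.5, which lies over RAB6D, rose by 1.04 ± 0.35 in KO1 and 1.30 ± 0.34 in KO2. Its KO1 call was lost by DESeq2 and without KO1 replicate 2 or WT replicate 2, and its KO2 call without WT replicate 2. RAB6D, named for a small GTPase, and ARHGEF4, a guanine nucleotide exchange factor gene, rose in KO2, by 1.69 ± 0.53 and 1.20 ± 0.35, and were at −0.13 and 0.08 in KO1. The RAB6D call was also lost by DESeq2 and without KO2 replicate 2, and the ARHGEF4 call by DESeq2. The other rows among the 10 nearest that were not called were AC093724.1, CCDC74A, AC073869.1, MZT2A and FAM168B, with log2 differences between −0.16 and 0.84 in both lines. The median log2 difference of the 13 was 0.14 in KO1 and 0.63 in KO2, against 0.01 and 0.02 over all tested rows. This median includes AC010974.1 and RAB6D. It also includes CCDC74A and MGAT5, which passed the filter only through knockout libraries, so it cannot be read apart from the filter. Apart from AC010974.1, no tested neighbour changed by more than 1.69 on the log2 scale.

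**Figure D4:**
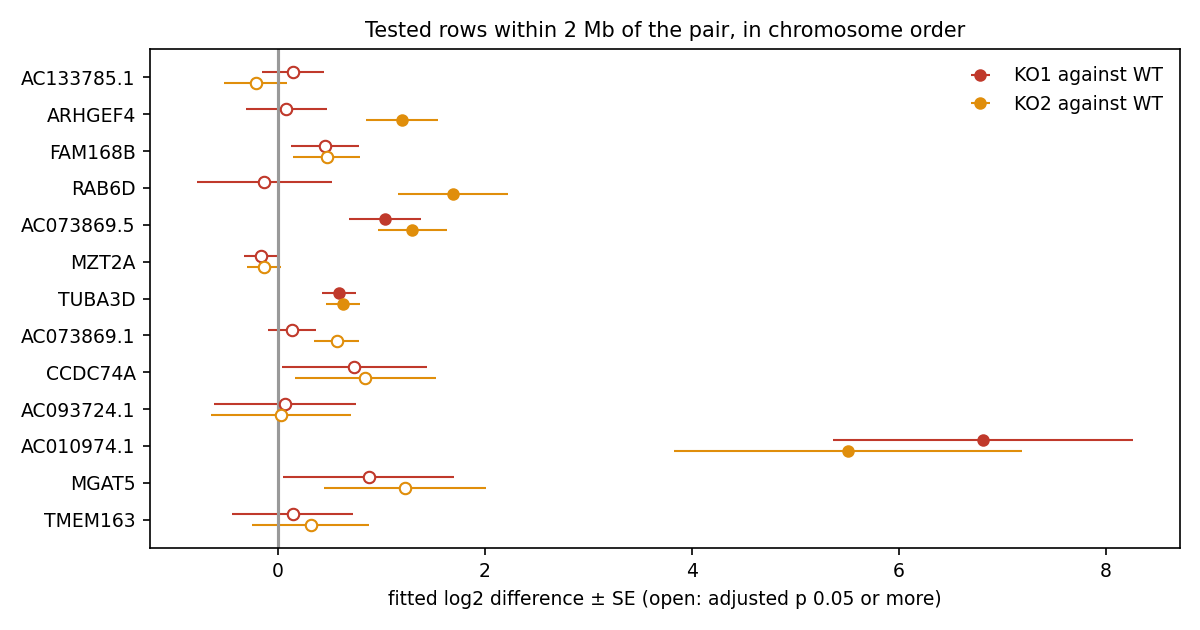
Fitted log2 difference with its SE for the 13 tested rows within 2 Mb of the pair, in chromosome order from top to bottom, for KO1 and KO2 against WT; open points have an adjusted p of 0.05 or more. AC010974.1, inside LYPD1, lies at 6.81 and 5.51, values that depend on the prior count because its WT libraries are at 0, and the other rows lie between −0.21 and 1.69.

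The rows whose pattern over the 6 libraries was most like that of GPR39 were found by the root-mean-square difference of log2 CPM, each row centred on its own mean, among 13784 rows. JAKMIP2-AS1, over JAKMIP2, was closest at 0.32, with 336 and 370 reads in KO1, 437 and 481 in KO2 and 0 and 2 in WT. SLC8A1-AS1 (0.39), over a sodium-calcium exchanger gene, CCDC152 (0.43), over the selenium carrier gene SELENOP, UQCRHL (0.51) and LINC00896 (0.51) followed. UQCRHL is nearly identical in sequence to UQCRH, so its reads may be shared. None of the 5 reached the reads of GPR39 in a knockout library, and the highest of them was 1014 in CCDC152.

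For LYPD1 the closest row was SERTAD4, over SERTAD4-AS1, at 0.24, with 62 and 86 reads in KO1, 49 and 50 in KO2 and 3 and 2 in WT. AP000802.1 (0.39, over the neural adhesion gene NCAM1), AC109446.3 (0.44, over XYLT1, a xylosyltransferase gene), CHRM3-AS2 (0.46, over the muscarinic receptor gene CHRM3) and HHIP-AS1 (0.46, over a hedgehog inhibitor gene) came next. Each of the 5 was higher in every knockout library than in either WT library, which follows from their choice by likeness to LYPD1.

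Lists of genes that work with either protein were read by own row and by the row over the gene on the opposite strand. For VIM the abundant row lay opposite the gene, so an own row may not give its gene's level. Changes of listed and neighbouring rows are therefore changes of rows, and which gene their reads came from was not tested. Of the 29 other Ly6/uPAR family genes, 5 had a tested row. LY6K, which lies over LNCOC1, had 2 and 1 reads in KO1, 28 and 10 in KO2 and 18 and 17 in WT. It fell by 3.37 ± 0.79 in KO1 (adjusted p 0.00132) and was at −0.01 ± 0.52 in KO2, and it passed the filter through KO2 and WT libraries alone. ACRV1, an acrosomal protein gene, fell by 0.76 ± 0.26 in KO2 and was at −0.13 in KO1. The KO2 call did not hold by DESeq2, or without KO2 replicate 2 (−0.61) or WT replicate 1 (−0.54). By edgeR and by DESeq2, 0 of the 5 were higher at an adjusted p under 0.05, against 10.4% (KO1) and 13.6% (KO2) of all tested rows. At an unadjusted p under 0.05, 1 was higher in KO1, SPACA4, named after its values were seen (1.24 ± 0.47, adjusted p 0.0548, and 0.59 without KO1 replicate 1), and 0 in KO2. The 1 gene with a row over it, PSCA (under JRK), had log2 differences of 0.15 (KO1) and 0.18 (KO2) and was not called.

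Of 18 genes for nicotinic receptor subunits and their assembly factors, 8 had a tested own row, with 1 higher in KO1 and, in KO2, 1 higher and 4 lower. Over all tested rows 10.4% were higher in KO1, and 13.6% higher and 15.4% lower in KO2. In KO1, 0 were lower by edgeR or DESeq2, and 1 was lower at an unadjusted p under 0.05. In KO2, DESeq2 called 1 higher and 2 lower. The 4 lower rows by edgeR include CHRNA10, which passed the filter only through WT. CHRNA3, which lies over CHRNA5, rose by 0.88 ± 0.09 in KO1 (adjusted p 1.87e-09) and 0.40 ± 0.09 in KO2 (0.00113). It had 648 and 704 reads in KO1, 551 and 576 in KO2 and 371 and 409 in WT. AC027228.2, also over CHRNA5, had 2910 and 2966 reads in KO1, 2883 and 3079 in KO2 and 1859 and 2119 in WT. It rose by 0.65 ± 0.07 and 0.45 ± 0.07, so both rows over the alpha 5 subunit gene were higher in both lines. CHRNG fell by 0.87 ± 0.21 in KO2 (adjusted p 0.00124) and was at −0.25 in KO1. CHRNA10 fell by 3.55 ± 0.97 in KO2, to 2 and 0 reads against 12 and 12 in WT, and the call did not hold without KO2 replicate 2 (adjusted p 0.134). The row passed the filter only through the WT libraries, where it was highest. CHRNB2, outside the naming rule and added after its values were seen, fell by 1.20 ± 0.40 in KO2 (adjusted p 0.0204 by edgeR). That call was lost by DESeq2 and without any 1 of the KO2 or WT libraries. CHRNE overlaps MINK1 tail to tail as the stronger row, with the row MINK1 at 6.55% of it. Which gene its reads came from was not tested. CHRNE fell by 0.26 ± 0.09 in KO2, and that call was lost by DESeq2 and without either KO2 library or WT replicate 2. C17orf107, over CHRNE, fell by 1.73 ± 0.63 in KO1 with 11 and 0 reads. This call was lost by DESeq2, without KO1 replicate 2 (−0.78) and without either WT library.

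Most relatives of GPR39 had too few reads in their own rows to test. Of 11 genes for ghrelin, motilin, neurotensin and neuromedin U receptors and their peptides, 4 had a tested row and none had a tested row over it. GHRL, the ghrelin gene, had 109 and 102 reads in KO1, 154 and 180 in KO2 and 179 and 193 in WT. It fell by 0.74 ± 0.17 in KO1 (adjusted p 0.000880) and was at −0.29 ± 0.16 in KO2.

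Of 35 genes for zinc transporters and metallothioneins, 17 had a tested own row, with 1 higher and 2 lower in KO1, and 3 higher and 1 lower in KO2, against 23.6% and 29.0% of all tested rows called in either direction. The list's counts were thus not above those shares. SLC30A8, a zinc transporter gene best known from pancreatic beta cells, had 76 and 64 reads in KO1, 73 and 37 in KO2 and 4 and 1 in WT. It rose 28.2-fold in KO1 (adjusted p 9.86e-10) and 19.2-fold in KO2 (2.85e-08), folds that rest on the few WT reads. The row passed the filter only through the knockout libraries, where it was high. In KO2, SLC39A1 (over CREB3L4) and SLC30A1 rose by 0.70 ± 0.14 and 0.68 ± 0.14, and SLC39A9 (over ERH) fell by 0.37 ± 0.06. These were at −0.07, 0.10 and 0.09 in KO1. The 2 lower rows in KO1, named after their values were seen, were SLC39A4 (−0.49 ± 0.12) and SLC30A9 (−1.06 ± 0.38). Neither call held without WT replicate 2 (−0.34 and −0.73), nor that of SLC30A9 without KO1 replicate 2 (−0.82). The SLC30A9 call was also lost by DESeq2 and with no filter on low counts. Of 4 rows over listed zinc genes, AC010273.1, over SLC30A5, rose by 0.34 ± 0.06 in KO1 and 0.59 ± 0.06 in KO2. AC233992.3, over SLC39A4, fell by 0.42 ± 0.11 and 0.62 ± 0.11, and the KO1 call was lost without WT replicate 2 (−0.33).

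Of 16 genes for G proteins, phospholipase C beta, arrestins, guanine nucleotide exchange factors and serum response factor, 12 had a tested own row. By edgeR 1 was higher in KO1 and 4 in KO2, and 0 were lower in either line, also at an unadjusted p under 0.05 or by DESeq2. Over all tested rows 10.4% and 13.6% were higher in KO1 and KO2, and 13.3% and 15.4% were lower. GNAS, which encodes the stimulatory G alpha subunit and here lies over GNAS-AS1, had 448 and 395 reads in KO1, 435 and 416 in KO2 and 213 and 284 in WT. It rose by 0.84 ± 0.11 in KO1 and 0.65 ± 0.11 in KO2. RHOA (over TCTA), ARHGEF1 and SRF rose in KO2 by 0.59 ± 0.08, 0.97 ± 0.37 and 0.49 ± 0.16, and were at 0.16, 0.19 and −0.16 in KO1. The ARHGEF1 call was lost without any 1 of the KO2 or WT libraries, and the SRF call without KO2 replicate 1 or either WT library. Both calls were also lost by DESeq2, and that of ARHGEF1 with no filter on low counts. AP001972.2, over the beta-arrestin gene ARRB1, fell by 1.26 ± 0.19 in KO1 (adjusted p 2.35e-06) and 1.39 ± 0.19 in KO2 (2.53e-07).

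**Figure D5:**
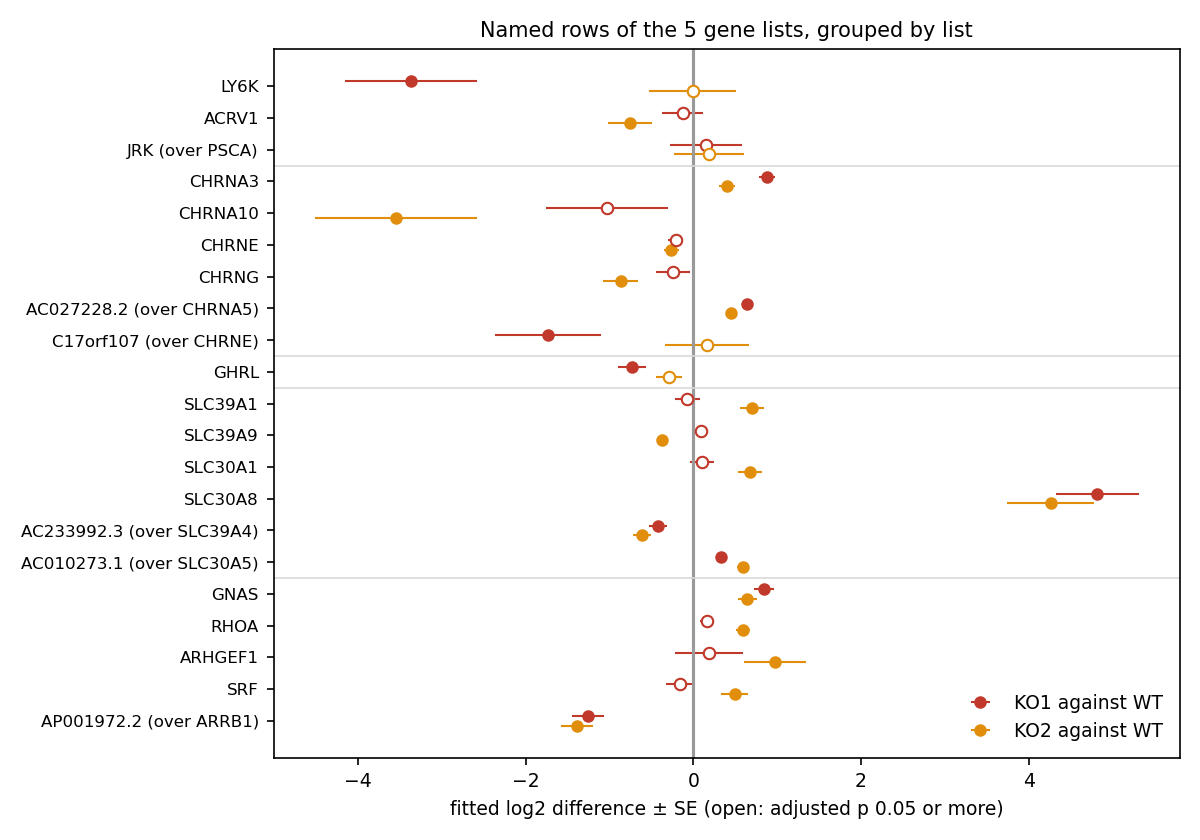
Fitted log2 difference with its SE for the named rows of the 5 gene lists, for KO1 and KO2 against WT, with lines between lists; open points have an adjusted p of 0.05 or more. SLC30A8 lies at 4.82 and 4.26, and the lowest points are LY6K at −3.37 in KO1 and CHRNA10 at −3.55 in KO2.

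Library totals ran from 7414339 to 8391143 reads. THUMPD2 had 3 and 0 reads in KO1, 0 and 1 in KO2 and 1 and 2 in WT, too few to check the genotype labels. Of 7 embryonic kidney line markers, PAX2 had at most 5 reads in a library and LHX1 none in its own row, and the others had reads in every library. The row over NEFM had 74 and 67 reads in KO1, 6469 and 6574 in KO2 and 719 and 772 in WT, so the lines differed in this marker, and its part in the results was not tested. The 6 mature kidney markers summed to 7 to 19 reads in a library, the 3 blood cell markers to 29 to 50 and the 3 fibroblast markers to 9 to 15. These are sums of own rows. For VIM the own row held few of the reads, so low sums cannot show that the marker genes were silent.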

How the data were processed

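HEK293T total RNA was sequenced in 6 libraries, 2 each of KO1, KO2 and WT, grouped by the sample titles. The libraries were strand-specific (NEBNext Ultra II Directional, first-strand), per the labels' protocols. Named in the submitters' processing notes are STAR 2.7.1a, HTSeq 0.6.1p1, Trim Galore, limma, hg38 and GRCh38.p6. The sources used here give neither the annotation nor the strand setting of the counting. The authors deposited raw read counts per gene symbol, and FPKM, which equalled the count divided by the authors' gene size and by 1 factor per library. Their deposited table also gave log2 fold changes, p-values and q-values, and ranking scores; of these only the log2 fold changes were used.

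Counts were fitted in R 4.3.3 with the edgeR 4.0.16 quasi-likelihood test, with TMM scaling and filterByExpr (14184 rows), as 1 fit of 3 groups without covariates. P-values were adjusted by Benjamini-Hochberg over all tested rows, and a row was called under 0.05. Folds of LYPD1 and AC010974.1 used summed reads over TMM-scaled library sizes, and the floor was 3 reads over a group. Of the steps, only the edgeR fit was tested on simulated data, for KO1 against WT. Changes were placed in rows of higher counts, with less spread between libraries than was estimated here. Rows of few reads were thus not covered. Of the rows, 56195 were placed on GENCODE release 29 by symbol. A row lies over a gene when it shares at least 100 exonic bases on the opposite strand and these are at least 80% of its opposite-strand overlap.

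The members, lists and tests were chosen with earlier results of these data known. Named were both members, THUMPD2, the 10 nearest tested rows, the 5 closest rows by pattern for each member, the 3 pairs of largest summed change, and per list and reading up to 4 called rows of smallest p, or the 2 of smallest p where none was called. Alternatives were RLE and upper-quartile factors, no filter, DESeq2 1.42.0, a replicate block and leaving out each library. P-values reflect only how far these libraries vary, and that variation could be technical. Library depth was 7414339 to 8391143 reads.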

Additional observations from a re-analysis of the deposited data

Results flagged for a closer look

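Several named rows outside the pair differed between the lines, by a test of KO1 against KO2 in the edgeR fit. Lower in KO1 than in KO2 were LY6K (log2 difference −3.36), C17orf107 over CHRNE (−1.90), RAB6D (−1.82), ARHGEF4 (−1.12), SLC39A1 (−0.77), SRF (−0.65), SLC39A4 (−0.61), SLC30A1 (−0.57), RHOA (−0.43) and AC010273.1 over SLC30A5 (−0.25). Higher in KO1 than in KO2 were CHRNG (0.62), CHRNA3 (0.48), SLC39A9 (0.46) and AC027228.2 over CHRNA5 (0.20). The adjusted p ranged from 1.63e-07 for SLC39A9 to 0.0329 for CHRNG. In C17orf107 the KO1 libraries held 11 and 0 reads. RAB6D passed the filter only through KO2, and LY6K through KO2 and WT libraries alone, so the filter itself favoured lower values in KO1 for both. Over all tested rows, 20.4% were called in this comparison.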

How the results depend on the processing

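The log2 difference of GPR39 stayed between 6.71 and 7.17 in KO1 and between 6.46 and 6.92 in KO2 against WT when each library was left out. For LYPD1, leaving out a library gave 4.76 to 8.01 in KO1 and 3.83 to 7.08 in KO2, and WT held 1 read and 0 reads. DESeq2 called 1 neighbouring row in KO1 and 3 in KO2, against 3 and 5, and 9 listed rows in KO2 against 14. For AC010974.1 it gave no value in KO1. Leaving out a library gave 1 to 3 neighbouring rows in KO1 and 0 to 6 in KO2, 5 to 8 and 10 to 14 listed rows, and 3 to 5 and 4 to 5 rows over listed genes. Counts over all rows stayed within 1.5 times of 3350 in KO1 and 4118 in KO2 under every alternative run. Replicate numbers did not pair the libraries (correlations of deviations −0.03 to −0.02), and with the replicate number as a block 3147 and 3944 rows were called, with GPR39 at 6.92 and 6.67. Of 38 calls of named rows, 21 held in every alternative that gave a value and none reversed. Rows of a few reads, LYPD1 and AC010974.1 among them, are limited by depth.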
